A study of Mus musculus with 6 samples.

Results

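SOX transcription factors were followed in mouse mammary organoids in which the histone methyltransferase gene Ezh2 had been deleted or left intact. The 10 genes described here, Sox4, Sox5, Sox6, Sox7, Sox9, Sox11, Sox12, Sox13, Sox17 and Sox18, were taken by name from the 21627 genes of the deposited table, and all 10 were found there. The knockout group (KO) came from MIC mice with conditional Ezh2 alleles and the wild-type group (WT) from MIC mice with intact alleles, with 3 libraries per group. All animals were FVB/N females aged 8 to 12 weeks. Mammary epithelial cells were grown for 6 days into acini, and both groups then received 2 µg/ml doxycycline for 8 days, the labels giving WT and KO the same treatment. As background, the MIC strain is known to carry the polyomavirus middle T oncogene joined to Cre recombinase under doxycycline control, so the agent turns on the oncogene and deletes conditional alleles together. WT organoids thus carry the oncogene too, and the comparison is of bulk organoid RNA with and without the conditional Ezh2 alleles. Expression of the oncogene was not examined here, and markers of cells other than epithelium are described below. The promoter behind the doxycycline response and the share of cells in which deletion took place were not stated in the labels. Nor do these tell if a replicate was its own mouse or culture; the p-values thus cover the spread of these libraries, which can be technical.

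SOX proteins bind the minor groove of DNA through an HMG box, bend it, and act with partner factors on lineage genes. They fall into groups by sequence: SOXC (Sox4, Sox11 and Sox12), SOXD (Sox5, Sox6 and Sox13), SOXE (here Sox9) and SOXF (Sox7, Sox17 and Sox18). In the mammary gland SOX9 is known from luminal progenitors and, with the factor SLUG, from stem-like cells, and SOX4 is known as an activator of Ezh2 in mouse mammary cells that undergo epithelial-mesenchymal transition. EZH2 is the catalytic subunit of Polycomb repressive complex 2, which places the repressive mark H3K27me3, often at CpG-rich promoters of developmental regulators such as SOX genes.

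The libraries held 27667054 to 29203634 counts in KO and 18292722 to 23437024 counts in WT organoids. Ezh2 stood at 7.13, 7.28 and 5.84 CPM (counts scaled to library size, with TMM factors) in KO replicates 1 to 3, against 19.3, 22.6 and 14.7 CPM in WT replicates 1 to 3. Its log2 fold change was −1.48 ± 0.20 (SE), with an adjusted p of 0.0755 in edgeR and 1.46e-07 in DESeq2. The KO libraries resembled each other more than the WT libraries did, with a per-gene chi-square that ran from 13.8 to 22.6 for pairs of KO libraries and from 74.8 to 146.1 for pairs of WT libraries. Pairs of 1 KO and 1 WT library ran from 51.3 to 143.9. WT replicate 3 was nearer to KO replicates 1 to 3 (70.7, 64.6 and 51.3) than to WT replicates 1 and 2 (109.1 and 74.8). Markers of other cells differed most among the WT libraries. Summed levels of 10 fibroblast markers were 1763 to 2052 FPKM (fragments scaled by gene length and depth) in KO organoids, against 637.5 FPKM in WT replicate 1 and 1852 and 2581 FPKM in WT replicates 2 and 3. Summed levels of 8 myeloid markers were 125.1 to 193.3 FPKM in KO organoids, against 106.4, 1355 and 338.6 FPKM in WT replicates 1 to 3. Abundant genes weigh most in these sums. Lyz2, a myeloid marker, averaged 106.8 FPKM in KO and 456.1 FPKM in WT organoids. Col1a1, a fibroblast marker, averaged 693.5 FPKM in KO and 571.0 FPKM in WT organoids. The 7 epithelial markers summed to 2693 to 2736 FPKM in KO and 2814 to 3266 FPKM in WT organoids, so the labelled epithelial type was present in every library. In bulk RNA, fewer cells of a type and less RNA per cell cannot be told apart.

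**Figure D1:**
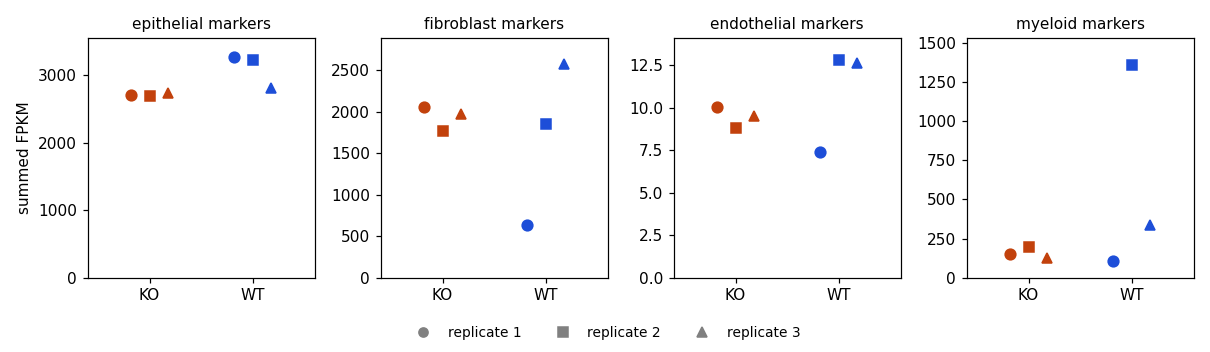
Summed FPKM of 4 marker lists (vertical axes from 0) in KO and WT organoids, 1 point per library with the replicate given by its shape. WT replicate 1 is lowest for fibroblast markers at 637.5 FPKM and WT replicate 2 is highest for myeloid markers at 1355 FPKM, while the KO libraries lie close together.

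No SOX gene passed the test for a difference between KO and WT organoids. Sox9, Sox13 and Sox6 had the smallest p-values, with fitted levels 1.18, 1.18 and 1.6 times those of WT, and Sox7, a gene of very low level, had fewer reads in every KO library. Of the 10 genes, 8 had enough reads to be tested, and Sox7 and Sox17 did not. edgeR's quasi-likelihood test called 0 of the 8 at an adjusted p of 0.05, as it called 0 of all 14196 genes tested (0%). At an unadjusted p under 0.05 edgeR held 0 of the 8 SOX genes, where 19.8% of all genes were under it. DESeq2 called 0 of the 7 SOX genes to which it gave an adjusted p, against 7.67% of all genes. The 2 groups were free of overlap in 2 of the 8, Sox9 and Sox13, against 28.8% of all genes, so these counts lie at or below the background. Fold changes were positive for 7 of the 8 and negative for Sox12, beside 44.5% positive over all genes tested. Those of Sox4, Sox11, Sox12 and Sox18 changed direction when single libraries were left out. The 8 genes had a median log2 fold change of 0.11, beside −0.047 over all genes tested. Their median absolute log2 fold change was 0.16, beside 0.24 over all genes. In the authors' deposited table the smallest adjusted p of the 10 was 0.260, for Sox9, and Sox7 and Sox17 had none.

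**Figure D2:**
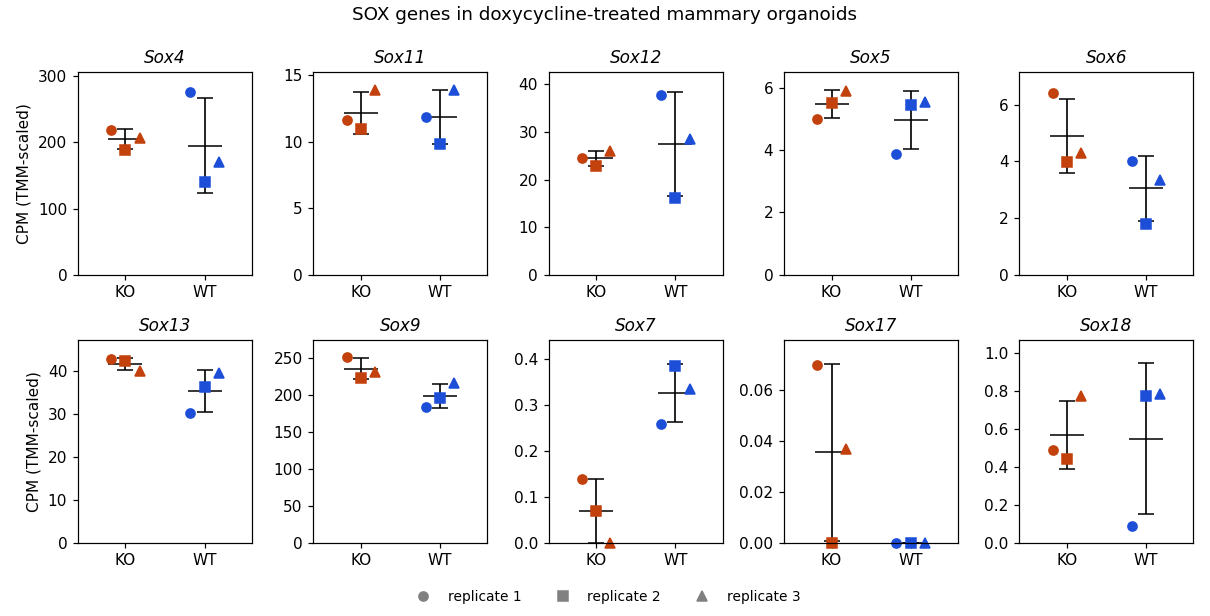
TMM-scaled CPM (linear axes from 0) of the 10 SOX genes in KO and WT organoids. Points are libraries with the replicate given by shape, and bars are mean ± SD (n = 3), with lower ends stopped at 0. KO and WT points overlap in 6 of the 8 tested genes and are apart in Sox9 and Sox13, and Sox7 is lower in all KO libraries at counts of 0 to 8.

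**Figure D3:**
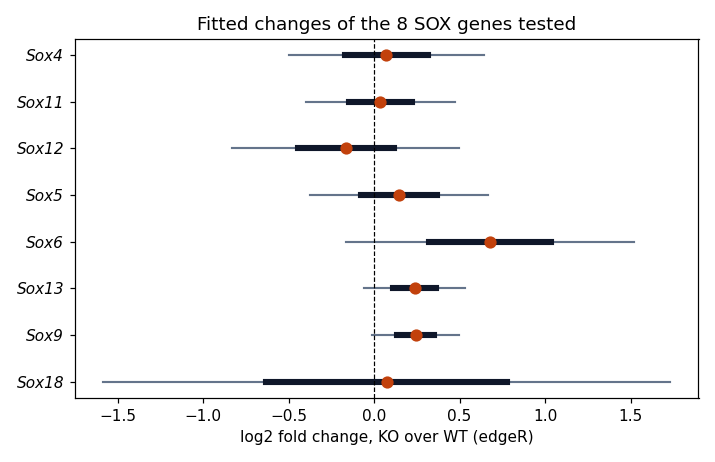
Fitted log2 fold changes, KO over WT (horizontal axis), of the 8 SOX genes tested with edgeR, as points with the SE (thick lines) and the 95% interval (thin lines). All 8 intervals include 0, from the narrow interval of Sox9 (−0.012 to 0.50) to the wide one of Sox18 (−1.59 to 1.73).

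Per gene length, Sox9 and Sox4 dominated the set, and the order of mean levels was the same in both groups for the 10 genes. Mean levels in KO and WT organoids were 56.8 and 48.1 FPKM for Sox9, 42.7 and 40.6 FPKM for Sox4, 11.3 and 9.58 FPKM for Sox13, 5.48 and 6.12 FPKM for Sox12 and 1.46 and 1.42 FPKM for Sox11. Sox5 (0.755 FPKM in KO and 0.686 FPKM in WT), Sox6 (0.594 FPKM in KO and 0.369 FPKM in WT) and Sox18 (0.348 FPKM in KO and 0.340 FPKM in WT) lay under 1 FPKM, and Sox7 (0.0210 FPKM in KO and 0.0995 FPKM in WT) and Sox17 (0.0113 FPKM in KO and 0 FPKM in WT) lay lowest. Neighbours in this order overlapped between libraries for Sox5 and Sox6 and for Sox7 and Sox17 in KO organoids. In WT organoids they overlapped for Sox9 and Sox4, Sox13 and Sox12, Sox6 and Sox18, and Sox18 and Sox7. Sox9 and Sox4 together made up 82.8% to 84.0% of the summed FPKM of the 10 genes in KO libraries and 81.0% to 84.2% in WT libraries. Among the other SOX genes of the table, Sox10, a factor of neural crest and glia that mammary epithelium also expresses, stood above all 10 in mean level. Its means were 100.3 FPKM in KO and 75.0 FPKM in WT organoids. In WT replicate 1, however, Sox10 was at 54.6 FPKM, below Sox4 at 56.9 FPKM.

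Sox4 encodes a SOXC activator linked to progenitor survival and to epithelial-mesenchymal transition, and its level differed more among WT libraries than between the groups. It stood at 219.0, 189.2 and 207.5 CPM in KO replicates 1 to 3, against 276.3, 139.7 and 170.0 CPM in WT replicates 1 to 3. WT replicate 1 was the highest of the 6 libraries and the other WT libraries were the lowest, so the KO libraries lay inside the WT range. The log2 fold change was 0.071 ± 0.24 (SE), with an adjusted p of 0.899 in edgeR and a 95% interval of −0.50 to 0.64. Without WT replicate 1 it was 0.42 ± 0.12 (adjusted p 0.0929), without WT replicate 2 it was −0.12 and without WT replicate 3 it was −0.019. Relative to Sox9 in the same library, Sox4 stood at a ratio of FPKM of 0.752, 0.730 and 0.773 in KO replicates 1 to 3, against 1.29, 0.615 and 0.677 in WT replicates 1 to 3. The ratio exceeded 1 in WT replicate 1 alone of the 6 libraries, which was also the library lowest in fibroblast markers, and their part in this was not tested.

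Sox12, the SOXC member known from many embryonic tissues as a weak activator in mice, was, like Sox4, highest in WT replicate 1 and lowest in WT replicate 2, at 0.63 and −0.61 on the log2 scale against the KO mean. It stood at 24.5, 22.9 and 26.0 CPM in KO replicates 1 to 3, against 37.8, 16.0 and 28.5 CPM in WT replicates 1 to 3. The KO libraries again fell inside the WT range, with a coefficient of variation of 6.45% in KO and 39.8% in WT organoids. Its log2 fold change was −0.17 ± 0.28 (SE), with an adjusted p of 0.777 in edgeR and a 95% interval of −0.83 to 0.50. It was 0.15 without WT replicate 1, −0.44 without WT replicate 2 and −0.14 without WT replicate 3, so its direction rested on single libraries.

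Sox11, the SOXC member best known from neural progenitors and from the developing skeleton, had a mean of 12.2 CPM in KO organoids, against 11.9 CPM in WT organoids. It stood at 11.6, 10.9 and 13.9 CPM in KO replicates 1 to 3, against 11.8, 9.84 and 13.9 CPM in WT replicates 1 to 3. The groups overlapped nearly fully. On the log2 scale the fold change was 0.037 ± 0.18 (SE), with an adjusted p of 0.934 in edgeR. Its 95% interval was −0.40 to 0.47, and changes within that interval are not excluded. The fold change was −0.080 without WT replicate 2, −0.068 without KO replicate 3 and −0.0058 with upper-quartile scaling.

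The 3 SOXC genes are compact, with 1 exon in the annotated transcript of Sox4 and of Sox11 and 1 to 2 exons in those of Sox12, and they lie on different chromosomes of mm10. Sox4 (ENSMUSG00000076431) lies on the minus strand at chr13:28948919-28953713, Sox11 (ENSMUSG00000063632) at chr12:27334264-27342574 and Sox12 (ENSMUSG00000051817) at chr2:152393611-152398063, both also on the minus strand. An antisense lincRNA gene, Gm26735, shares 2616 exonic bases with Sox4 and had 1 count in all libraries, and without strand information reads of the pair cannot be told apart. The promoters are shown because the SOXC genes differ both in level and in CpG content, the feature with which Polycomb binding is known to go. The bases that lie before the gene's start in RefSeq (GRCm38.p6) and outside the GENCODE gene were chr13:28953714-28953949 for Sox4, chr12:27342719-27342968 for Sox11 and chr2:152398064-152398296 for Sox12, all on the minus strand and written 5′ to 3′ with CpG dinucleotides in capitals:
Sox4: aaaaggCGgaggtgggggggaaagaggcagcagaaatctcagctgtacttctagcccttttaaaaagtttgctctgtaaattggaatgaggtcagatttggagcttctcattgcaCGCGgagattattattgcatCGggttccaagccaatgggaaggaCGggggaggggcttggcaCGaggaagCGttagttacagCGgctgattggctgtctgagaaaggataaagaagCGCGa
Sox11: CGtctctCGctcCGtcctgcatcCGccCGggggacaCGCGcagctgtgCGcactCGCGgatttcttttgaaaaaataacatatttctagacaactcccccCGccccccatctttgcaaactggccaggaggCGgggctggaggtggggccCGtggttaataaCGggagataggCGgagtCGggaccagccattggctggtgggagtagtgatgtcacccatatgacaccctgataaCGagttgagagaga
Sox12: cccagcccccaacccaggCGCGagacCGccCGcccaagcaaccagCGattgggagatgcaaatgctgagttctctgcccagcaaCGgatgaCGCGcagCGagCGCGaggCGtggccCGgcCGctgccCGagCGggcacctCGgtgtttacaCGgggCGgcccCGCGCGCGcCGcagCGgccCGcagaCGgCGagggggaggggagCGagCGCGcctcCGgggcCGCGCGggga
The RefSeq start of Sox11 lies upstream of its GENCODE start. Its stretch thus ends short of the GENCODE gene, whereas those of Sox4 and Sox12 reach it. The stretches held 10 CpG in Sox4, 17 in Sox11 and 35 in Sox12. In the full RefSeq windows of 300 bases the counts were 12, 21 and 47, against a median of 7 over 32851 promoters, and 62.1%, 76.9% and 98.8% of promoters held as few or fewer. CpG content did not follow level: Sox4, with the fewest CpG of the 3 windows, had the highest FPKM, and Sox11 the lowest. None of the 3 passed the test between KO and WT.

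Sox9, the SOXE factor of cartilage, testis and mammary progenitors, was the most abundant of the 10 per gene length and had the smallest p of the 8 tested. It stood at 251.0, 223.5 and 231.4 CPM in KO replicates 1 to 3, against 184.2, 196.0 and 216.4 CPM in WT replicates 1 to 3. Every KO library was above every WT library, with a gap between 223.5 and 216.4 CPM at the nearest pair. Sox9 averaged 235.3 ± 14.2 CPM (SD) over the 3 KO libraries and 198.9 ± 16.3 CPM over the 3 WT libraries. Its log2 fold change of 0.24 ± 0.11 (SE) had a 95% interval of −0.012 to 0.50 and an adjusted p of 0.269 in edgeR and 0.206 in DESeq2. By exact two-sided permutation p was 0.1, and 20 arrangements of the libraries allow nothing smaller. Under the 15 alternatives, which reuse these libraries, the fold change ran from 0.20 without KO replicate 1 to 0.31 without WT replicate 3. With no overlap between the groups, leaving out 1 library could hardly change its sign. By edgeR's p, Sox9 was in place 3091 of 14196 genes. Sox9 (ENSMUSG00000000567) lies at chr11:112782224-112787760 on the plus strand of mm10 and has 3 exons.

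The genes most like Sox9 over the 6 libraries, by Pearson's r of log2 CPM among all genes tested, were Sema4d (r = 0.999), Rab11fip1 (r = 0.997) and Slc41a1 (r = 0.997). Their log2 fold changes were 0.35, 0.25 and 0.21. Those most like Sox4 were Gak (r = 0.994), Rfx7 (r = 0.992) and Ttc37 (r = 0.991), with log2 fold changes of 0.072, 0.078 and 0.045. These r values, the highest of all genes tested, are a description over 6 libraries with no p.

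SOXD proteins carry no activation or repression domain of their own and work with partners; in cartilage of mice SOX5 and SOX6 assist SOX9. Sox13 was the most abundant SOXD gene, and Sox6 had the largest fold change of the 8 genes tested. Sox13, known from T cell and neural development, stood at 42.7, 42.3 and 39.9 CPM in KO replicates 1 to 3, against 30.1, 36.3 and 39.6 CPM in WT replicates 1 to 3. Every KO library was above every WT library, but KO replicate 3 and WT replicate 3 differed by under 1 CPM. Sox13 averaged 41.6 ± 1.5 CPM (SD) over the 3 KO libraries and 35.4 ± 4.82 CPM over the 3 WT libraries. The log2 fold change was 0.24 ± 0.13 (SE), with an adjusted p of 0.337 in edgeR and a 95% interval of −0.059 to 0.53, and leaving out WT replicate 1 or WT replicate 3 gave 0.15 or 0.33. In the exact permutation test it too reached p = 0.1, the smallest possible.

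Sox6, known from cartilage, muscle fibre type and erythroid development, stood at 6.40, 3.98 and 4.30 CPM in KO replicates 1 to 3, against 4.02, 1.79 and 3.36 CPM in WT replicates 1 to 3. KO replicate 1 was the highest library and WT replicate 2 the lowest. KO replicate 2 lay just under WT replicate 1, so the groups overlapped. KO over WT, Sox6 had a log2 fold change of 0.68 ± 0.36 (SE), with an adjusted p of 0.334 in edgeR, 0.306 in DESeq2 and a 95% interval of −0.16 to 1.52. Leaving out WT replicate 2 gave 0.41, leaving out WT replicate 1 gave 0.95, and by exact permutation p was 0.2. WT replicate 2, where Sox6 was lowest, was the library highest in myeloid markers, and their part in the Sox6 value was not tested.

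Sox5 stood at 5.01, 5.51 and 5.91 CPM in KO replicates 1 to 3, against 3.89, 5.45 and 5.54 CPM in WT replicates 1 to 3. Apart from WT replicate 1, which was the lowest, the libraries overlapped. Its log2 fold change was 0.14 ± 0.22 (SE), with an adjusted p of 0.752 in edgeR, and 0.0091 without WT replicate 1. Sox5 (ENSMUSG00000041540) spans 953553 bases at chr6:143828425-144781977 in mm10, on the same chromosome as Ezh2. Sox6 (ENSMUSG00000051910) spans 567401 bases at chr7:115471344-116038744 and Sox13 (ENSMUSG00000070643) 42075 bases at chr1:133382303-133424377, so the SOXD genes are far longer than the SOXC genes. Annotated transcripts number 14 for Sox5, 16 for Sox6 and 5 for Sox13, and the counts do not separate them. Sox5os1, an antisense gene absent from the deposited table, shares 1330 exonic bases with Sox5. Without strand information reads of the pair cannot be told apart.

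Sox6 is the member with the largest fold change and the most start sites, 6 in the RefSeq table, so its most upstream promoter is shown. The bases before both annotated starts, chr7:116038797-116038994 on the minus strand of GRCm38.p6, are written 5′ to 3′ with a match to the SOX core letters ACAAAG in capitals:
Sox6: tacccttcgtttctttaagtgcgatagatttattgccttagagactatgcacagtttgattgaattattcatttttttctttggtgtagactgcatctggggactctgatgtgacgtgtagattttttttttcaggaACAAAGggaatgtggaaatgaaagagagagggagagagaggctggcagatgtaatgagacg
Matches to ACAAAG or ACAATG on either strand were counted in all promoter windows of 300 bases. They were found in 6 of the 11 windows of the 6 SOX genes with an entry, against 28.6% of all windows, and 5 of those 6 windows belonged to Sox6 and the other to Sox5. The windows of Sox4, Sox11, Sox12 and Sox13 had none of these letters. The Sox13 window held 40 CpG, the Sox5 window 3 and the Sox6 windows 2 to 13. A match in these windows is a description of letters. RefSeq promoter entries matched 6 of the 10 genes, and Sox7, Sox9, Sox17 and Sox18 had no entry.

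SOXF genes are best known from endothelium, where SOX17 and SOX18 act in arterial and lymphatic vessels, and SOXF proteins can bind β-catenin and damp Wnt output in cultured cells. All 3 were low, and Sox7 and Sox17 had too few counts to be tested. Sox7 had 4, 2 and 0 counts in KO replicates 1 to 3, against 6, 8 and 6 counts in WT replicates 1 to 3. Every KO library was below every WT library although KO libraries were deeper, and the 0 of KO replicate 3 allows up to 0.110 CPM. Over each group, 6 counts in KO and 20 counts in WT put the KO rate at 0.217 times the WT rate (95% interval 0.0713 to 0.560, for counting error only). The filter on low counts left Sox7 untested. Without a filter edgeR gave a log2 fold change of −2.12 ± 0.98 (SE) with an adjusted p of 0.370, and by exact permutation p was 0.1, again the lowest possible.

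Sox18 had 14, 13 and 21 counts in KO replicates 1 to 3, against 2, 16 and 14 counts in WT replicates 1 to 3. WT replicate 1 stood far below the other 5 libraries, at 0.0864 CPM, and the rest ran from 0.442 to 0.783 CPM. The log2 fold change was 0.073 ± 0.71 (SE), with an adjusted p of 0.968 in edgeR and a 95% interval of −1.59 to 1.73. It was −0.44 without WT replicate 1, 0.45 without WT replicate 2, 0.42 without WT replicate 3 and −0.21 without KO replicate 3. Sox17 had 2, 0 and 1 counts in KO and 0 in each WT library, all at or under the limit of 3 counts that a count of 0 allows, so no fold is given. An antisense gene, Gm37587, shares 804 exonic bases with Sox17. In mm10 Sox7 (ENSMUSG00000063060) lies at chr14:63943674-63950732 on the plus strand, Sox17 (ENSMUSG00000025902) at chr1:4490928-4496413 and Sox18 (ENSMUSG00000046470) at chr2:181669836-181671640, with Sox17 and Sox18 on the minus strand.

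Endothelial markers were present at low levels in every library and were lowest in WT replicate 1, the library with the least Sox18. All 16 were found in the table, none was at 0 over all libraries, and their sum was 10.1, 8.79 and 9.50 FPKM in KO replicates 1 to 3 and 7.38, 12.8 and 12.6 FPKM in WT replicates 1 to 3. Of 13 tested, 0 passed in edgeR or DESeq2, which called 0% and 7.67% of all genes. Of the 13, 2 were positive and 11 negative, with a median log2 fold change of −0.20. The junction gene Cdh5 had 2.01 ± 0.0529 CPM (SD) over the 3 KO libraries and 2.47 ± 0.594 CPM over the 3 WT libraries, and Pecam1 had 0.954 ± 0.315 CPM in KO libraries and 1.56 ± 1.17 CPM in WT libraries. Their part in the Sox7 and Sox18 values was not tested. Sox7 in WT replicate 1 had as many counts as in WT replicate 3, so it did not share the low value of Sox18 there.

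**Figure D4:**
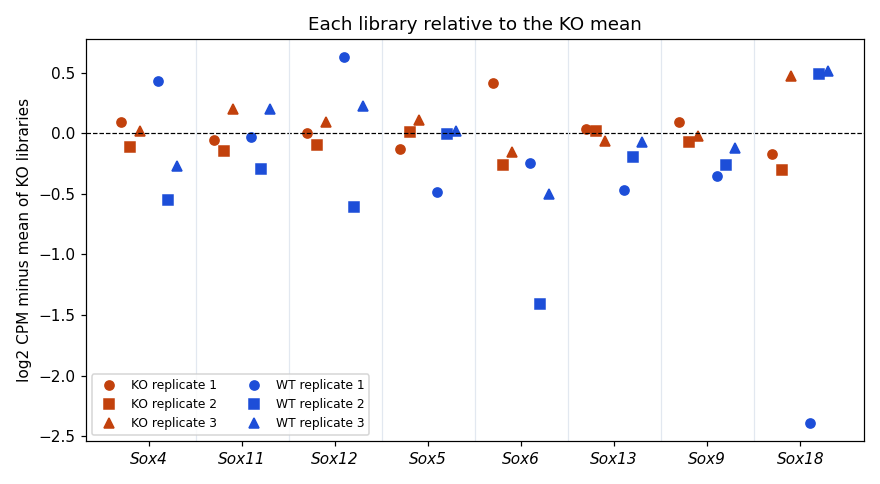
Log2 CPM of the 8 tested SOX genes in each library minus the mean of the KO libraries (vertical axis), with KO points left of WT points and the replicate given by shape. WT replicate 1 is highest for Sox4 and Sox12 (0.43 and 0.63) and lowest for Sox9, Sox13, Sox5 and Sox18, where it reaches −2.39, and WT replicate 2 is lowest for Sox6 at −1.41.

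The spread among WT libraries was larger than that among KO libraries in all 8 SOX genes tested, by the SD of log2 CPM, and in 81.8% of all genes tested. As coefficients of variation of CPM, it was 6.45% in KO and 39.8% in WT organoids for Sox12, 7.33% in KO and 36.7% in WT for Sox4, and 6.02% in KO and 8.21% in WT for Sox9. WT replicate 1 went both ways within the family: against the KO mean, Sox4 and Sox12 were at 0.43 and 0.63 on the log2 scale, and Sox9, Sox13 and Sox5 at −0.35, −0.47 and −0.49.

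Among the other genes of the SOX family, 8 of 10 listed were in the table and 4 were tested, with a median log2 fold change of −0.0064. Of these 4, 0 passed in edgeR or DESeq2, against 0% and 7.67% of all genes. Sox10 stood at 302.8, 258.3 and 256.2 CPM in KO replicates 1 to 3, against 150.0, 246.5 and 211.6 CPM in WT replicates 1 to 3, with a log2 fold change of 0.43 ± 0.19 (SE) and an adjusted p of 0.267 in edgeR. WT replicate 1 was lowest for Sox10, as for Sox9. Sox2, a pluripotency and neural factor, had 10, 5 and 5 counts in KO and 1, 3 and 0 counts in WT libraries and was too low to test. Of 23 other HMG-box genes, such as the Wnt effectors of the TCF and LEF group, 21 were tested. Beside the same shares over all genes, 0 of the 21 passed in edgeR or DESeq2, with 11 positive, 10 negative and a median of 0.019. The Wnt effector genes had log2 fold changes of 0.019 ± 0.12 for Tcf7, 0.021 ± 0.19 for Tcf7l1, 0.20 ± 0.12 for Tcf7l2 and −0.16 ± 0.52 for Lef1 (SE). The smallest p-values of that list were Pbrm1, a chromatin remodeller subunit, at 0.37 ± 0.15, and the repressor gene Cic at 0.39 ± 0.17.

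Cartilage matrix genes that SOX5, SOX6 and SOX9 are known to activate went both ways. Of 12 genes found, 7 were tested and 0 passed in edgeR or DESeq2, which called 0% and 7.67% of all genes. The median log2 fold change of the 7 was 0.31. Col9a3, a collagen IX chain, averaged 65.9 ± 4.78 CPM (SD) over the 3 KO libraries and 38.2 ± 16.4 CPM over the 3 WT libraries, with a log2 fold change of 0.79 ± 0.32 (SE; adjusted p 0.239 in edgeR). Col11a2, a collagen XI chain, averaged 2.41 ± 0.180 CPM in KO libraries and 4.18 ± 0.684 CPM in WT libraries, with a log2 fold change of −0.79 ± 0.24 (adjusted p 0.153 in edgeR). The summed level of the list was 51.8, 46.6 and 48.1 FPKM in KO replicates 1 to 3 and 13.8, 42.2 and 42.9 FPKM in WT replicates 1 to 3, low in the library that was low in fibroblast markers. The cartilage genes Col2a1 and Acan were near 0, with 9 and 4 counts in KO and 3 and 7 counts in WT organoids.

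Of 4 genes reported as targets of SOXC factors, Ezh2 is the deleted gene itself and Dcx was too low to test. Tead2, a partner of YAP, averaged 69.6 ± 3.45 CPM (SD) over the 3 KO libraries and 48.2 ± 6.77 CPM over the 3 WT libraries. Its log2 fold change of 0.53 ± 0.13 (SE) passed in DESeq2 (adjusted p 0.0126), which called 7.67% of all genes. In edgeR, which called 0% of all genes, it did not pass (adjusted p 0.112). Tubb3, a neuronal tubulin, was at −1.18 ± 0.49 and passed in neither. Ezh2 aside, the list thus held 1 positive and 1 negative fold change.

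Epithelial lineage lists, in which SOX9 and SOX10 are usually placed, had 0 calls in edgeR, and their DESeq2 calls stand beside a share of 7.67% over all genes. Of 5 luminal progenitor markers tested, 1 passed upward in DESeq2 and 0 in edgeR, with a median log2 fold change of −0.0068; this was Ehf, an ETS factor, at 0.36 ± 0.11. Of 7 hormone-sensing luminal markers 0 passed in either test, with a median of 0.068. Of 10 basal and myoepithelial markers 1 passed downward in DESeq2 and 0 in edgeR, with a median of −0.40; it was the contractile gene Cnn1, at −1.19 ± 0.23. Snai2, which encodes the SOX9 partner SLUG, averaged 2.19 ± 0.689 CPM (SD) over the 3 KO libraries and 3.03 ± 0.561 CPM over the 3 WT libraries. Of 7 epithelial markers 1 passed downward in DESeq2, Krt19 at −0.89 ± 0.21, and their median was −0.21. Beside the same 7.67% over all genes in DESeq2, the 10 fibroblast markers had 0 calls and a median of 0.14, the 8 myeloid markers 2 downward calls in DESeq2 (Itgam and Tyrobp) and a median of −1.76, and the 6 Schwann and glial markers tested, Sox10 among them, 2 upward calls in DESeq2 (Ngfr and Mbp) and a median of 0.58.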

How the data were processed

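RNA was sequenced from poly(A)-selected, randomly primed libraries of 3 KO and 3 WT organoid samples. The authors deposited raw counts per gene and FPKM, per the file headers. Per the submitters' processing notes, CASAVA, STAR and the mm10 build were used; no version, counting tool or annotation is stated there. The log2 fold changes and p-values in the authors' deposited table come from a test that is not named there. The deposited counts of all genes went into edgeR 4.0.16 (R 4.3.3) with TMM factors (filter at a minimum count of 10 and a total of 15, robust quasi-likelihood F test, Benjamini-Hochberg adjustment, threshold 0.05). DESeq2 1.42.0 and limma 3.58.1 served as alternatives. The scripts were tested on simulated data. SEs and 95% intervals are those of the edgeR fit; counting intervals are exact Poisson intervals and, since no molecular identifiers are named in the labels, cover counting error only. Gene symbols turned into dates, 24 in all, were restored through their identifiers. Gene overlaps and exons are from GENCODE M21, and promoters from RefSeq.

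Members and lists were chosen with earlier results of these data known. All 10 members are named, with Ezh2, up to 2 genes of each direction with the smallest p in each list, defining markers, and the 3 genes most like Sox4 and Sox9. The Wnt effectors of the HMG-box list, Snai2 and Sox2 were named after their values were seen.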

Additional observations from a re-analysis of the deposited data

How the results depend on the processing

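Under 15 alternatives, 0 of the SOX genes passed an adjusted p of 0.05; the smallest adjusted p was 0.0929 (Sox4 without WT replicate 1). Of 115 recomputed fold changes of single SOX genes, 107 kept their direction and 8 changed it. Sox11 was at −0.0058 with upper-quartile scaling, and leaving out 1 library gave −0.080 to 0.17 for Sox11, −0.12 to 0.42 for Sox4, −0.44 to 0.15 for Sox12 and −0.44 to 0.45 for Sox18; the cause was not tested. Over all genes, the count of calls was 0 in edgeR, 1046 in DESeq2, 131 without a filter on low counts, 2 with limma-trend on log2(FPKM + 1) and 2 on log2(FPKM + 0.1), and 0 to 216 when leaving out 1 library (38 without WT replicate 1 and 216 without WT replicate 2). Sox6 and Sox18 were under the FPKM filter of the limma fits. Labels give KO and WT libraries the same replicate numbers but do not say what a number shares, so no pairs were assumed. Deviations of same-numbered libraries correlated at −0.059, 0.23 and 0.062, and those of other KO and WT pairs at −0.29 to 0.22. With so few libraries these correlations cannot settle pairing. With the replicate number as a block edgeR again called 0 genes and 0 SOX genes, with Sox6 at 0.72 and Sox9 at 0.24; Sox4 was at 0.13, Sox12 at −0.087 and Sox18 at 0.26, each moved by over 1.5 times and in the same direction. Depth limits Sox7, Sox17 and Sox18, which had 80 counts or fewer over the 6 libraries.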
